A study of Mus musculus with 6 samples.

Results

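Semaphorins, plexins, ephrins and Eph receptors are the ligands and receptors of repulsive and attractive cell guidance, and their transcripts were read here in tail tendons of mice with and without *Mkx*, a homeobox transcription factor gene of tendon. The genes were taken by symbol from the count table, as all rows named *Sema*, *Plxna* to *Plxnd*, *Epha*, *Ephb*, *Efna* or *Efnb* followed by a number. This gave 52 of the 44788 rows, which were 51 protein-coding genes of the 4 families and *Plxna4os1*, an antisense RNA whose name fits the same pattern. Of the 52 rows, 44 had enough counts to be tested, 5 had some counts but too few (*Epha1*, *Efna3*, *Sema4f*, *Sema5b* and *Plxnc1*), and 3 were at 0 in every library (*Epha8*, *Epha10* and *Plxna4os1*).

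Bulk RNA-seq was performed on minced tail tendons of C57BL/6 mice, 3 libraries from wild-type (WT) mice and 3 from *Mkx*-/- mice, all untreated and labelled as 3 weeks old, although the study's text gives another age. The *Mkx*-/- mice came from another laboratory, no Cre or transgene is named in the labels, and the labels do not say whether a library was 1 animal or a pool, so p-values measure the spread between these libraries only. A bulk library mixes all cells of the tissue, so that fewer cells of a type and less RNA per cell cannot be told apart. The libraries held 10835070 to 14160301 counts, of which the 52 rows took 0.181% to 0.245%. *Col1a1*, *Col1a2* and *Sparc* took 28.3% to 48.5% of the counts, with the higher shares in WT, and levels are therefore given as CPM, which are counts brought to a common library size with TMM scaling. One WT library, replicate 3, had reads of the Y-linked gene *Ddx3y* and almost none of *Xist*, whereas the other 5 had no *Ddx3y* reads. All 11 tendon markers had reads in both genotypes. *Tnmd* had a mean of 1083 CPM in WT and 1065 CPM in *Mkx*-/-. *Scx* had 37.0 and 16.8 CPM (adjusted p = 0.106, edgeR) and *Col1a2* 257911 and 127464 CPM (adjusted p = 0.0933, edgeR). *Thbs4* had 4638 and 11147 CPM (adjusted p = 0.0118, edgeR) and was the only one of the list that passed the test. *Mkx* itself had 1825, 1381 and 1685 counts in WT and 620, 589 and 491 in *Mkx*-/- libraries, a log2 fold change of -1.60 (SE 0.16, adjusted p = 0.00183, edgeR), so reads on the gene remained in each *Mkx*-/- library.

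Class 3 semaphorins are secreted proteins that mostly act through a neuropilin, Nrp1 or Nrp2, paired with a plexin, while the semaphorins of the other classes are anchored in the membrane and bind plexins directly. Plexins act on the cytoskeleton through a GTPase-activating domain for small Ras and Rap proteins. Eph receptors are receptor tyrosine kinases, with EphA receptors bound mainly by the lipid-anchored ephrin-A ligands and EphB receptors by the transmembrane ephrin-B ligands, and both partners can signal into their own cell. In the skeleton these families are known from the cross-talk of osteoclasts, osteoblasts, nerves and vessels, with *Sema3a* and *Ephb4* among the best-known members.

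To see whether these genes differed between the genotypes, all 14550 genes with enough counts were fitted together with edgeR's quasi-likelihood test, and a gene is said here to have risen or fallen at a Benjamini-Hochberg adjusted p under 0.05. It is called upregulated or downregulated where the log2 fold change also passes 1 or -1. Among the 44 tested members, *Sema3a*, *Epha3* and *Epha7* fell in *Mkx*-/- tendons, of which *Sema3a* and *Epha7* were downregulated, and 0 rose. Over all tested genes, 2.26% fell, 1.33% were downregulated, 3.18% rose and 1.89% were upregulated. At an unadjusted p under 0.05, 7 members were higher and 7 lower, which is 15.9% each, against 12.5% and 10.1% of all genes. DESeq2 in place of edgeR gave 5 that rose and 5 that fell of the 47 members it tested (10.6% each), and in that fit 4.87% of all genes rose and 3.58% fell. A log2 fold change above 0 was found in 28 members (63.6%) and in 49.5% of all tested genes. The median log2 fold change of the 44 members was 0.22 and that of all tested genes -0.0037, and the median absolute values were 0.40 and 0.24. The 3 *Mkx*-/- libraries lay wholly above the WT libraries in 5 members and wholly below them in 7, together 27.3% of the members, and 28.2% of all tested genes showed such a separation in either direction. With scaling by the total count instead of TMM, the median of all genes moved up to 0.25 and the members' split changed from 0 risen and 3 fallen to 5 and 3, with 9.33% of all genes risen and 1.35% fallen.

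**Figure D1:**
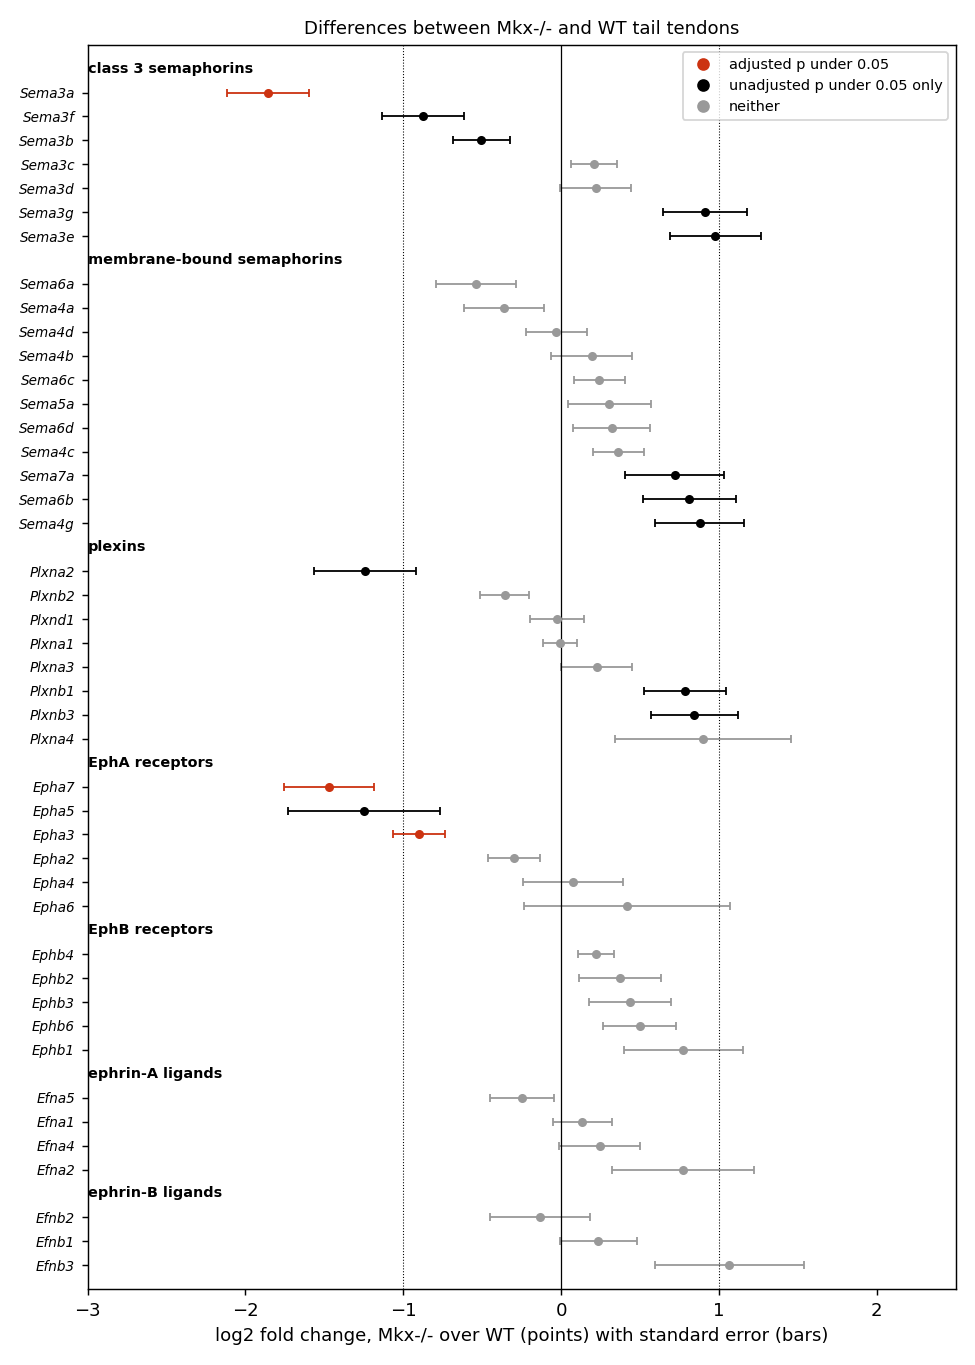
Log2 fold change of *Mkx*-/- against WT on the horizontal axis for each of the 44 tested members, grouped by class, as the estimate and its standard error from edgeR. The 3 genes with an adjusted p under 0.05, *Sema3a*, *Epha7* and *Epha3*, all lie on the left side, at -1.86, -1.47 and -0.90.

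*Sema3a*, the repulsive ligand that signals through Nrp1 and class A plexins and is known to restrain bone resorption, had the largest fall of the 3. Reads on it numbered 576, 473 and 784 in WT, and 199, 127 and 197 in *Mkx*-/- libraries. After scaling these were 45.4, 46.4 and 62.8 CPM in WT and 18.2, 8.92 and 15.6 CPM in the *Mkx*-/- group. The highest *Mkx*-/- library was thus below the lowest WT library, and the level was 3.63-fold lower (log2 fold change -1.86, SE 0.26, adjusted p = 0.00714, edgeR). The adjusted p stayed under 0.05 in all 14 alternative fits, between 4.2e-10 and 0.0315. *Sema3a* lies on the plus strand of chromosome 5 from 13125593 to 13602565 in mm9.

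*Epha3*, an ephrin-A receptor and the most abundant EphA gene of these tendons per length, fell as well. Its level was 42.4, 45.8 and 48.3 CPM in WT and 30.3, 20.2 and 22.9 CPM in *Mkx*-/- libraries, without overlap. The level was 1.86-fold lower (log2 fold change -0.90, SE 0.17, adjusted p = 0.0216, edgeR). *Epha7*, another ephrin-A receptor, was read at a much lower level, with 56, 50 and 62 counts in WT and 19, 32 and 14 counts in *Mkx*-/- libraries. These made 4.41, 4.91 and 4.97 CPM in WT and 1.74, 2.25 and 1.11 CPM in the *Mkx*-/- group, 2.78-fold lower and again without overlap (log2 fold change -1.47, SE 0.29, adjusted p = 0.0255, edgeR). Both calls were less firm than that of *Sema3a*, since each held in 9 of the 14 alternative fits. The call of *Epha3* was lost without WT replicate 2 (adjusted p = 0.0779), WT replicate 3 (0.0812), *Mkx*-/- replicate 2 (0.0713) or *Mkx*-/- replicate 3 (0.081), and that of *Epha7* without WT replicate 2 (0.0895), WT replicate 3 (0.0958), *Mkx*-/- replicate 1 (0.0595) or *Mkx*-/- replicate 3 (0.0634). With the replicate number as a block the adjusted p was 0.0548 for *Epha3* and 0.0586 for *Epha7*. In mm9 *Epha3* spans bases 63543364 to 63863984 of chromosome 16 (minus strand), and *Epha7* bases 28740281 to 28894649 of chromosome 4 (plus strand).

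The 250 bases before the start sites of these 3 genes are shown because they are the members that fell, read from RefSeq on GRCm38.p6 in the direction of transcription, with matches on either strand to 3 searched motifs in capitals. CANNTG is the core that basic helix-loop-helix factors bind, while ACANTGT and its longer form with another base between, ACANNTGT, are inverted ACA repeats of the kind bound by the Iroquois group of homeobox factors, to which Mkx is related. The *Sema3a* window is chr5:13396534-13396783 on the plus strand, inside the longer gene record of mm9, the *Epha3* window chr16:63864176-63864425 on the minus strand, and the *Epha7* window chr4:28812881-28813130 on the plus strand, where the first of its 2 listed starts was taken.
*Sema3a*: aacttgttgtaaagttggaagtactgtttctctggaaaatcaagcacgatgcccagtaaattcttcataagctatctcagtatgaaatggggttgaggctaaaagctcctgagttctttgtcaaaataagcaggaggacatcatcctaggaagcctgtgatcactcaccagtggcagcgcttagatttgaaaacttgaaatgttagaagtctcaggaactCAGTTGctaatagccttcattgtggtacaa
*Epha3*: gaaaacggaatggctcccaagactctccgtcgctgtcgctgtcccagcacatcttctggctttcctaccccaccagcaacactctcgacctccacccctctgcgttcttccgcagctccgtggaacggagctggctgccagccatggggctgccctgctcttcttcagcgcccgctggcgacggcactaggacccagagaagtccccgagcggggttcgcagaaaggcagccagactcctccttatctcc
*Epha7*: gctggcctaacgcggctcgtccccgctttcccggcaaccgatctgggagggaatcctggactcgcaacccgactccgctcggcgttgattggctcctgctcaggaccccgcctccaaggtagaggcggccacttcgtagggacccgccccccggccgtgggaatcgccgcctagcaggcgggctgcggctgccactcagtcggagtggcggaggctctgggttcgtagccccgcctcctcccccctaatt
The *Sema3a* window held 1 CANNTG match, CAGTTG, and the other windows held none of the 3 motifs. *Sema3a* also differed from the rest in base composition, with 40.8% G and C and 2 CpG, whereas *Epha3* had 62.8% and 16 CpG and *Epha7* 69.2% and 25 CpG. Over the 59 windows of the 45 members that matched the RefSeq table, the medians were 64.0% and 16 CpG, compared with 52.4% and 6 CpG over all 32851 windows. CANNTG occurred in 49.2% of member windows and 66.2% of all windows, ACANTGT in 5.08% and 6.47%, and ACANNTGT in 3.39% and 6.31%. The GC-box GGGCGG was found in 74.6% of member windows and 32.7% of all, the CCAAT box in 32.2% and 33.8%, and TATAAA in 1.69% and 12.4%. These are matches of letters, which overlap in part since ACANNTGT contains CANNTG, and no binding was measured.

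The class 3 semaphorins held the most abundant ligands per length. *Sema3b* stood far above the others, with 172 ± 28.9 CPM per kb of exon (SD, n = 3) in WT tendons, ahead of *Sema3c* with 28.7 ± 2.90 and *Sema3f* with 24.4 ± 6.84 CPM per kb. The last 2 differed by less than their spread. Per length, *Sema3a* reached 5.10 ± 0.967 in WT and 1.41 ± 0.475 in *Mkx*-/- tendons, and 8.69 in WT with the longest transcript as its length. *Sema3b*, a repulsive ligand first known as a candidate tumor suppressor, made up 62.6% to 65.4% of the CPM of its class in WT and 53.3% to 59.8% in *Mkx*-/- libraries. Its own level was 590, 775 and 822 CPM in WT and 496, 438 and 606 CPM in *Mkx*-/- libraries, so that the groups overlapped (log2 fold change -0.51, SE 0.18, adjusted p = 0.147, edgeR). *Sema3f*, a ligand that prefers Nrp2, lay at 57.7, 101 and 96.7 CPM in WT and at 53.6, 32.3 and 53.4 CPM in *Mkx*-/- libraries, without overlap but with an adjusted p of 0.0917 (log2 fold change -0.87, SE 0.26, edgeR). Without WT replicate 1, the lowest WT library for *Sema3f*, its adjusted p was 0.02, and with all 6 libraries DESeq2 called it as fallen (adjusted p = 0.0144). *Sema3b* and *Sema3f* are neighbors on chromosome 9, 72.3 kb apart in mm9.

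The remaining class 3 genes had positive log2 fold changes, and 0 of these 4 passed edgeR's test, with 2 at an unadjusted p under 0.05 and both called by DESeq2. *Sema3e*, which binds Plxnd1 without a neuropilin, lay at 20.6, 11.4 and 10.1 CPM in WT and at 22.8, 35.6 and 24.6 CPM in *Mkx*-/- libraries (log2 fold change 0.98, SE 0.29, adjusted p = 0.0884, edgeR). All *Mkx*-/- libraries were above all WT libraries, and the adjusted p was 0.00925 without WT replicate 1, the library nearest to them. *Sema3g*, known mainly from blood vessel endothelium, lay at 8.98, 11.4 and 13.8 CPM in WT and at 13.6, 23.2 and 27.3 CPM in *Mkx*-/- libraries (log2 fold change 0.91, SE 0.26, adjusted p = 0.0861, edgeR). For *Sema3g* the lowest *Mkx*-/- library was just below the highest WT library, and the adjusted p was 0.032 without *Mkx*-/- replicate 1 and 0.0424 with the replicate block. *Sema3c*, a ligand of heart outflow tract development, and *Sema3d* had log2 fold changes of 0.21 and 0.22 (adjusted p = 0.452 and 0.614, edgeR).

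*Sema3d*, *Sema3a*, *Sema3e* and *Sema3c* lie in this order on the plus strand of mouse chromosome 5, with gaps of 0.537, 0.423 and 2.823 Mb. Of these 4 neighbors, *Sema3a* alone passed the test, and its log2 fold change of -1.86 stood beside 0.22 for the gene before it, *Sema3d*, and 0.98 for the gene after it, *Sema3e*. The ratio of *Sema3a* to *Sema3c*, which needs no scaling between libraries, was 0.239, 0.237 and 0.275 in WT and 0.0672, 0.0431 and 0.0676 in *Mkx*-/- libraries. The ratio of *Sema3a* to *Sema3e* was 2.20, 4.08 and 6.22 in WT and 0.799, 0.250 and 0.635 in *Mkx*-/- libraries. Both ratios thus separated the genotypes without overlap, as a description. *Sema3a* was taken because it had passed the test, and *Sema3c* and *Sema3e* for their position. The separation is therefore not independent of the *Sema3a* result. *Sema3a* had more CPM than *Sema3e* in each WT library and less in each *Mkx*-/- library, and the same held per kb of exon. The summed level of all class 3 semaphorins was 1138 ± 177 CPM in WT and 909 ± 116 CPM in the *Mkx*-/- group (SD, n = 3), with overlap between the groups.

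**Figure D2:**
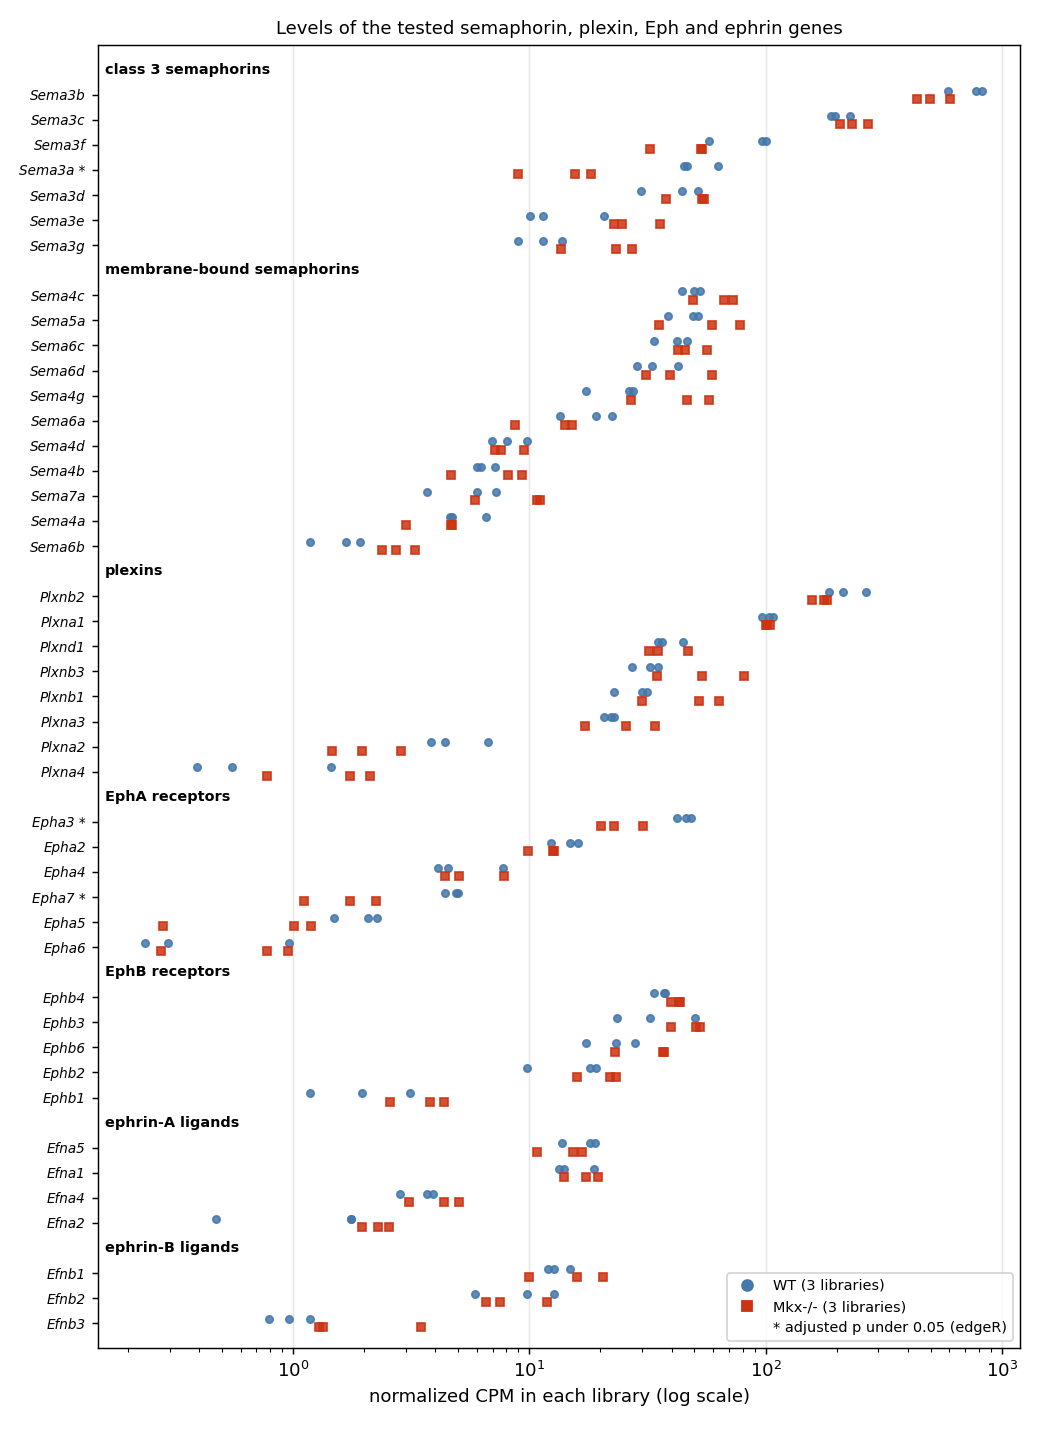
Level of each of the 44 tested members, grouped by class, in CPM on a log axis, with 1 point per library (circles for the 3 WT, squares for the 3 *Mkx*-/- libraries) and an asterisk at an adjusted p under 0.05. *Sema3a*, *Epha3* and *Epha7* show no overlap between the genotypes, as given with their values in the text. Their separation is not independent of the asterisk, and 28.2% of all tested genes separate in either direction.

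Among the membrane-bound semaphorins, 0 of 11 tested genes rose or fell in edgeR's test, 3 had an unadjusted p under 0.05, and DESeq2 called *Sema4g* as risen. The highest per length were *Sema4c*, a ligand of Plxnb2, with 10.6 ± 0.917 CPM per kb in WT, *Sema6c* with 6.88 ± 1.09 and *Sema4g* with 4.88 ± 1.15 (SD, n = 3). With the longest transcript as length *Sema6d* (5.39) stood above *Sema4g* (5.22). *Sema4c* and *Sema6c* had log2 fold changes of 0.36 and 0.24 (adjusted p = 0.233 and 0.431, edgeR). *Sema4g* lay at 17.3, 27.5 and 26.5 CPM in WT and at 27.0, 46.5 and 57.4 CPM in *Mkx*-/- libraries (log2 fold change 0.88, SE 0.28, adjusted p = 0.110, edgeR). Here *Mkx*-/- replicate 1 lay among the WT libraries, and without it the adjusted p was 0.0421, while with the replicate block it was 0.0461. *Sema6b*, which binds class A plexins, was read at 1.18, 1.67 and 1.92 CPM in WT and at 3.30, 2.74 and 2.38 CPM in *Mkx*-/- libraries, low but without overlap (log2 fold change 0.81, SE 0.29, adjusted p = 0.146, edgeR). *Sema7a*, the lipid-anchored semaphorin that binds Plxnc1 and integrins, lay at 3.70, 7.26 and 6.01 CPM in WT and at 5.86, 10.7 and 11.1 CPM in *Mkx*-/- libraries (log2 fold change 0.72, SE 0.31, adjusted p = 0.218, edgeR). The other 8 tested genes had log2 fold changes between -0.54 and 0.36 (lowest adjusted p = 0.233), from 5.29 to 48.9 CPM in WT. The summed level of these semaphorins was 241 ± 27.9 CPM in WT and 302 ± 68.1 CPM in the *Mkx*-/- group.

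Plexin transcripts summed to 451 ± 35.8 CPM in WT and 448 ± 43.1 CPM in *Mkx*-/- libraries (SD, n = 3). *Plxnb2*, the receptor of *Sema4c* and *Sema4g* products, was highest per length with 30.2 ± 5.54 CPM per kb in WT, followed by *Plxna1* with 11.4 ± 0.578. Both stood clear of the next plexins, *Plxnd1* with 5.39 ± 0.722 and *Plxnb3* with 4.86 ± 0.616, which differed by less than their spread. *Plxna1*, a coreceptor of Nrp1 for *Sema3a* product, lay at 103, 97.1 and 107 CPM in WT and at 102, 101 and 104 CPM in *Mkx*-/- libraries, a log2 fold change of -0.0048 with an SE of 0.11. *Plxnb2* lay at 265, 212 and 185 CPM in WT and at 177, 183 and 157 CPM in *Mkx*-/- libraries, without overlap (log2 fold change -0.36, SE 0.16, adjusted p = 0.224, edgeR). None of the 8 tested plexins rose or fell in edgeR's test, 3 of them had an unadjusted p under 0.05, and DESeq2 called *Plxna2*, *Plxnb1* and *Plxnb3*. *Plxna2*, a receptor of semaphorins of classes 3 and 6, lay at 6.70, 3.83 and 4.41 CPM in WT and at 1.47, 1.97 and 2.85 CPM in *Mkx*-/- libraries, without overlap (log2 fold change -1.24, SE 0.32, adjusted p = 0.0665, edgeR). *Plxnb1*, the receptor of *Sema4d* product, lay at 30.1, 22.9 and 31.5 CPM in WT and at 30.0, 52.5 and 63.3 CPM in *Mkx*-/- libraries (log2 fold change 0.79, SE 0.26, adjusted p = 0.118, edgeR). *Plxnb3*, the receptor of *Sema5a* product, lay at 27.3, 32.3 and 35.2 CPM in WT and at 34.8, 53.9 and 81.3 CPM in *Mkx*-/- libraries (log2 fold change 0.85, SE 0.28, adjusted p = 0.115, edgeR). In both, *Mkx*-/- replicate 1 was within the WT range, and without it the adjusted p was 0.028 for *Plxnb1* and 0.0363 for *Plxnb3*. *Plxnb1* and *Plxna1* have exons that overlap a gene on the opposite strand in mm9, and the sources used here do not give the treatment of strand in counting.

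The *Mkx*-/- libraries differed among themselves in *Sema3g*, *Sema4g*, *Sema7a*, *Plxnb1* and *Plxnb3*, with *Mkx*-/- replicate 1 at 1.04 to 1.20 times the WT mean, replicate 2 at 1.71 to 2.04 times and replicate 3 at 1.96 to 2.58 times. The other 2 members that were higher at an unadjusted p under 0.05 did not follow this order, with *Sema3e* at 1.62, 2.54 and 1.75 times and *Sema6b* at 2.07, 1.72 and 1.49 times the WT mean in replicates 1, 2 and 3. Some members without such a p did follow it, such as *Sema4c* (49.2, 66.7 and 72.5 CPM) and *Sema6d* (31.2, 39.3 and 59.5 CPM) in *Mkx*-/- replicates 1, 2 and 3. Others did not, such as *Sema4b* (4.67, 9.34 and 8.09 CPM). The summed Schwann cell markers were 1.29, 2.12 and 2.42 times the WT mean in these libraries, with 6165 to 8457 CPM in WT and 9842 to 18439 CPM in the *Mkx*-/- group. Over all tested genes, 49.5% had a log2 fold change above 0 and 3.18% rose. Of 14 Schwann cell markers, which are genes of the glial cells that wrap peripheral nerves, 13 were tested, all 13 were higher in *Mkx*-/- tendons, and 1 of them, *Ncmap*, rose. None was at 0, and *Mbp*, a myelin gene, had a mean of 2104 CPM in WT and 4179 CPM in the *Mkx*-/- group. The summed endothelial markers were 93.1 to 114 CPM in WT and 158 to 246 CPM in the *Mkx*-/- group, with 14 of 16 higher, 2 risen and none at 0, and were 1.52, 1.69 and 2.37 times the WT mean in the *Mkx*-/- libraries. The 2 that rose weighed much in this sum. *Erg* had a mean of 8.30 CPM in WT and 44.1, 37.1 and 26.9 CPM in *Mkx*-/- replicates 1, 2 and 3. *Ecscr* had 9.23 CPM in WT and 20.4, 27.3 and 26.9 CPM in these. *Erg* alone thus made 44.1 of the 158 CPM of replicate 1. *Tek* had means of 25.9 CPM in WT and 26.2 CPM in *Mkx*-/- libraries, and *Emcn* and *Esam* were lower without a call. The summed skeletal muscle markers ran in the opposite order, at 11.3, 5.42 and 2.22 times the WT mean in *Mkx*-/- replicates 1, 2 and 3. The part of nerve sheath, vessel and muscle RNA in the values of these 7 members was not tested.

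**Figure D3:**
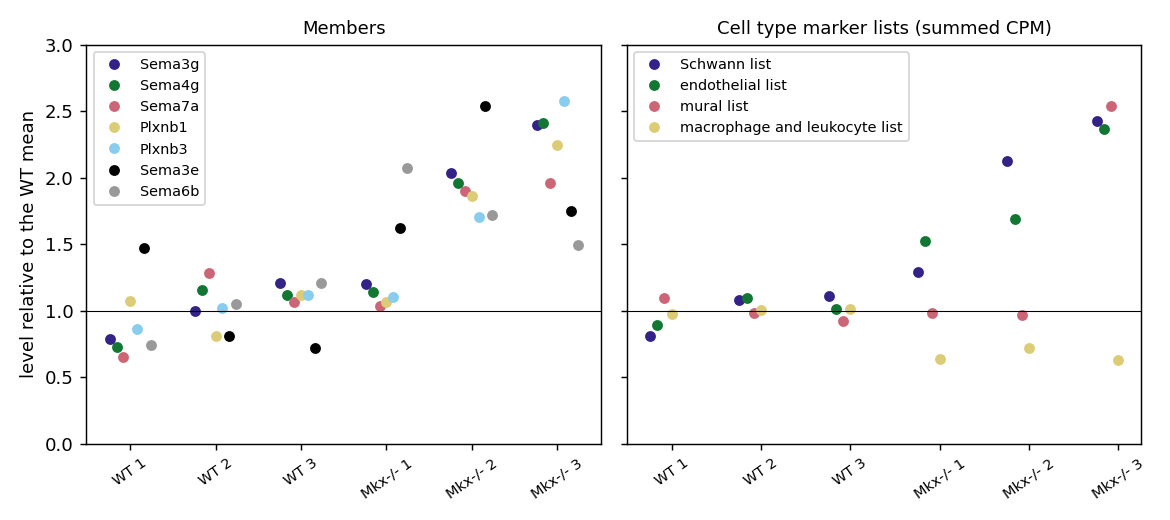
Level in each library relative to the WT mean, for the 7 members that were higher at an unadjusted p under 0.05 (left) and for the summed CPM of 4 cell type marker lists (right). The skeletal muscle list is not drawn and was at 11.3, 5.42 and 2.22 times the WT mean in *Mkx*-/- replicates 1, 2 and 3. In the *Mkx*-/- libraries *Sema3g*, *Sema4g*, *Sema7a*, *Plxnb1* and *Plxnb3* and the Schwann cell and endothelial lists are lowest in replicate 1. By contrast, *Sema6b* is highest there and *Sema3e* is highest in replicate 2. The WT points lie between 0.654 and 1.47.

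The other marker lists gave the makeup of the libraries in which *Sema3a* and the EphA genes were lower. Beside their counts, 3.18% of all tested genes rose, 2.26% fell and 49.5% had a log2 fold change above 0. Skeletal muscle markers summed to 109 to 461 CPM in WT and 654 to 3311 CPM in *Mkx*-/- libraries, with 19 of 20 higher, 5 risen and none at 0. Macrophage and leukocyte markers summed to 714 to 742 CPM and 461 to 524 CPM, with all 13 tested genes lower, 2 fallen and none at 0. Tendon markers, which are mostly the 2 collagen I genes by level, summed to 382679 to 525486 CPM in WT and 246229 to 341187 CPM in *Mkx*-/- libraries, where 5 of 11 were higher, 1 rose and 0 fell (2 lower at an unadjusted p under 0.05). Mural cell markers summed to 339 to 401 CPM in WT and 355 to 929 CPM in *Mkx*-/- libraries, with 7 of 9 higher and 0 risen (3 at an unadjusted p under 0.05). Here *Mkx*-/- replicates 1 and 2, at 359 and 355 CPM, were within the WT range and replicate 3 alone was above it. The neuron list, whose transcripts sit mostly in cell bodies outside the tendon, summed to 4.41 to 7.66 CPM in WT and 8.85 to 12.1 CPM in *Mkx*-/- libraries, with all 4 tested genes higher and 0 risen (2 at an unadjusted p under 0.05). Cartilage markers rose in 3 of 7 tested genes, and their sum was 544 to 1079 CPM in WT and 814 to 1324 CPM in *Mkx*-/- libraries, with *Matn1* at 0. Mast cell markers summed to 9.85 to 13.2 CPM in WT and 2.29 to 3.88 CPM in *Mkx*-/- libraries, with *Fcer1a* at 0, and the only gene tested, *Kit*, fell. *Kit* carried most of this sum, with means of 11.3 CPM in WT and 2.75 CPM in *Mkx*-/- libraries. The means of *Mcpt4*, *Tpsb2* and *Cpa3* were at most 0.205 CPM and were higher in *Mkx*-/- libraries. *Cma1* had means of 0.0327 and 0.0264 CPM, so the sum is mainly a reading of *Kit*. Lymphatic, adipocyte, keratinocyte and bone cell lists had sums under 100 CPM and 0 risen or fallen genes by adjusted p, with 0, 0, 5 and 2 at an unadjusted p under 0.05. The part of these cell types in the falls of *Sema3a*, *Epha3* and *Epha7* was not tested.

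The sums of EphA and EphB receptor genes were compared as a description. EphA transcripts summed to 65.5, 73.0 and 80.2 CPM in WT and to 47.6, 41.7 and 47.4 CPM in *Mkx*-/- libraries, whereas EphB transcripts summed to 99.6, 115 and 122 CPM in WT and to 143, 137 and 159 CPM in *Mkx*-/- libraries. Neither sum overlapped between the genotypes. The EphA sum without *Epha3* did, at 23.1, 27.2 and 31.9 CPM in WT and 17.3, 21.5 and 24.5 CPM in *Mkx*-/- libraries. The ratio of EphA to EphB was 0.657, 0.637 and 0.655 in WT and 0.334, 0.304 and 0.298 in *Mkx*-/- libraries. With each gene taken per kb of exon it was 0.575, 0.605 and 0.648 in WT and 0.331, 0.285 and 0.289 in *Mkx*-/- libraries. *Epha3* made up 60.2% to 64.7% of EphA CPM in WT, and without it the ratio was 0.232, 0.237 and 0.260 in WT and 0.121, 0.157 and 0.154 in *Mkx*-/- libraries. The ratio separated the genotypes in each of these forms, where the form without *Epha3* rests also on the EphB sum, and since it was built from the same genes after their values were known, it carries no test.

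Within EphA, *Epha5*, a receptor best known from neurons, lay at 1.50, 2.26 and 2.08 CPM in WT and at 1.01, 0.281 and 1.19 CPM in *Mkx*-/- libraries, without overlap (log2 fold change -1.25, SE 0.48, adjusted p = 0.169, edgeR). *Epha2*, a receptor of epithelia and bone cells, lay at 12.4, 14.9 and 16.1 CPM in WT and at 9.89, 12.6 and 12.7 CPM in *Mkx*-/- libraries (log2 fold change -0.30, adjusted p = 0.334, edgeR). *Epha4* and *Epha6* had log2 fold changes of 0.08 and 0.42 (adjusted p = 0.918 and 0.755, edgeR). Of the 6 tested EphA genes 2 fell and 4 were lower, and all 5 EphB genes were higher without any passing the test (0 at an unadjusted p under 0.05, and 0 called by DESeq2). *Ephb4*, the receptor of ephrin-B2 at the border of arteries and veins and on osteoblasts, was close to *Epha3* per length, with 7.78 ± 0.460 CPM per kb against 8.04 ± 0.525 for *Epha3* in WT (SD, n = 3), a difference within their spread. The order turned when the longest transcript was taken as the length (8.32 and 8.04). In *Mkx*-/- tendons *Ephb4* was at 9.07 ± 0.394 and *Epha3* at 4.32 ± 0.928 CPM per kb. *Ephb4* itself lay at 37.0, 37.6 and 33.6 CPM in WT and at 42.9, 40.0 and 43.4 CPM in *Mkx*-/- libraries, without overlap (log2 fold change 0.22, SE 0.11, adjusted p = 0.291, edgeR), and its exons overlap *Zan* on the opposite strand in mm9. *Ephb6*, a receptor without kinase activity, and *Ephb3* followed with 6.08 ± 1.42 and 5.63 ± 2.15 CPM per kb in WT, which did not differ beyond their spread and also changed places with that length (6.10 and 7.46), and had log2 fold changes of 0.50 and 0.44 (adjusted p = 0.249 and 0.362, edgeR).

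**Figure D4:**
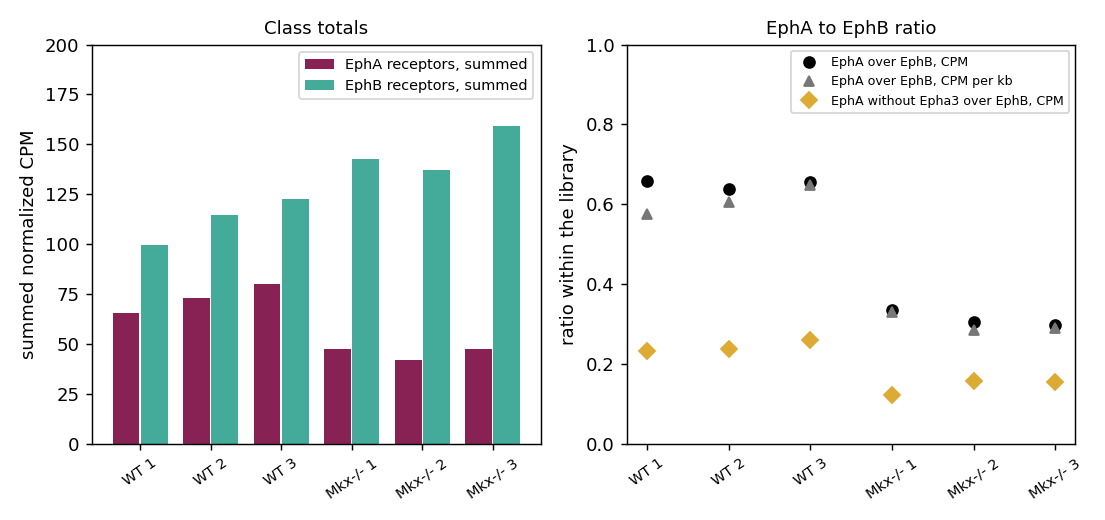
Summed CPM of the EphA and EphB receptor genes in each of the 6 libraries (bars, left), and ratios of the sums within each library (right). The ratio of summed CPM is between 0.637 and 0.657 in the WT libraries and between 0.298 and 0.334 in the *Mkx*-/- libraries.

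The ephrins, the ligands of these receptors, showed no call. Ephrin-A transcripts summed to 37.3 ± 5.44 CPM in WT and 38.1 ± 6.24 CPM in the *Mkx*-/- group, and ephrin-B transcripts to 23.6 ± 3.69 and 26.1 ± 8.76 CPM (SD, n = 3). *Efna1* had the highest level per length, 8.41 ± 1.63 CPM per kb in WT, followed by *Efna5* with 4.20 ± 0.697 and *Efnb1*, the X-linked ephrin of skull and limb development, with 3.82 ± 0.424. The last 2 differed by less than their spread. Their log2 fold changes were 0.14, -0.25 and 0.24 (adjusted p = 0.717, 0.516 and 0.620, edgeR). None of the 7 tested ephrins rose or fell in edgeR's test, 0 had an unadjusted p under 0.05, and DESeq2 called 0. *Efnb2*, the partner of *Ephb4* product, lay at 5.91, 9.81 and 12.7 CPM in WT and at 7.51, 6.53 and 11.9 CPM in *Mkx*-/- libraries, with overlap. Over all classes, the 30 tested members with an unadjusted p of 0.05 or more had log2 fold changes from -0.54 to 1.07 and adjusted p-values from 0.224 to 0.988. The largest of these was 1.07 in *Efnb3*, at a mean of 0.976 CPM in WT and 2.04 CPM in the *Mkx*-/- group.

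Partners of the semaphorins were read in the same fit, from lists of pathway genes. Of 13 semaphorin receptors other than plexins 12 were tested, 2 fell and 0 rose (2 higher at an unadjusted p under 0.05). *Nrp1*, the coreceptor for *Sema3a* product, lay at 42.9, 41.3 and 38.9 CPM in WT and at 31.7, 46.2 and 36.9 CPM in *Mkx*-/- libraries, with overlap (log2 fold change -0.10, SE 0.15, adjusted p = 0.750, edgeR). Its log2 fold change was 0.16 with total-count scaling. *Nrp2*, the coreceptor for *Sema3f* product, fell from 78.5, 76.8 and 78.3 CPM in WT to 48.8, 53.4 and 49.7 CPM in *Mkx*-/- libraries (log2 fold change -0.62, SE 0.11, adjusted p = 0.0168, edgeR). The genotypes did not overlap, but the adjusted p was 0.0519 to 0.0705 without any 1 of the libraries other than WT replicate 1, 0.0588 with the replicate block and 0.134 with total-count scaling. *Met*, the hepatocyte growth factor receptor that can associate with B-type plexins, fell from 103, 78.5 and 85.2 CPM in WT to 40.3, 35.8 and 30.8 CPM in *Mkx*-/- libraries (log2 fold change -1.32, SE 0.15, adjusted p = 0.00330, edgeR), and passed in all 14 alternative fits.

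Of 25 plexin effectors 24 were tested, 3 rose and 0 fell (1 lower at an unadjusted p under 0.05). Of all tested genes 3.18% rose and 2.26% fell. *Rnd1*, a small GTPase that binds plexins, had 4, 6 and 8 counts in WT and 22, 44 and 23 counts in *Mkx*-/- libraries (log2 fold change 2.16, SE 0.40, adjusted p = 0.0225, edgeR). *Mras*, a Ras-related protein and target of plexin GTPase activity, rose from 49.3 ± 5.92 to 95.7 ± 16.6 CPM (log2 fold change 0.96, adjusted p = 0.0164, edgeR). *Dpysl3*, of the collapsin response mediator family, rose from 87.5 ± 4.21 to 142 ± 27.9 CPM (log2 fold change 0.70, adjusted p = 0.0418, edgeR). *Rnd1* was called in 9 of 13 alternative fits, *Mras* in 10 of 14 and *Dpysl3* in 8 of 14, and each call was lost without some single libraries. For *Rnd1* these were WT replicate 2 (adjusted p = 0.0827), WT replicate 3 (0.0764) and *Mkx*-/- replicate 2 (0.0829), for *Mras* they were WT replicates 2 and 3 (0.0657 and 0.0558) and *Mkx*-/- replicates 2 and 3 (0.0549 and 0.0532), and for *Dpysl3* any library but *Mkx*-/- replicate 2 (0.0593 to 0.123). With the replicate block the adjusted p was 0.0512 for *Rnd1* and 0.0819 for *Dpysl3*. Of 33 effectors of Eph receptors and ephrins 32 were tested, and beside the same shares of all genes 1 rose and 0 fell (2 lower at an unadjusted p under 0.05). It was *Grip2*, a scaffold protein that binds ephrin-B tails, with 13, 11 and 10 counts in WT and 22, 40 and 54 counts in *Mkx*-/- libraries (log2 fold change 1.65, SE 0.36, adjusted p = 0.0404, edgeR), and its call was lost without any 1 library other than *Mkx*-/- replicate 1 (0.0582 to 0.132) and with the replicate block (0.0895).

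In the other guidance families, which are slits, netrins, repulsive guidance molecules and their receptors, 18 of 26 genes were tested, 3 fell and 0 rose (2 higher at an unadjusted p under 0.05). Of all tested genes 2.26% fell and 3.18% rose. *Robo2*, a receptor of slits, had 71, 73 and 101 counts in WT and 11, 15 and 15 counts in *Mkx*-/- libraries (log2 fold change -2.67, SE 0.25, adjusted p = 0.00141, edgeR). *Unc5c*, a repulsive netrin receptor, had 107, 44 and 52 counts in WT and 0, 7 and 4 counts in *Mkx*-/- libraries (log2 fold change -4.25, SE 0.61, adjusted p = 0.00795, edgeR). *Flrt1*, a membrane protein that binds Unc5 receptors, had 56, 16 and 27 counts in WT and 3, 10 and 6 counts in *Mkx*-/- libraries (log2 fold change -2.44, SE 0.51, adjusted p = 0.0345, edgeR). *Robo2* and *Unc5c* passed in all 14 and 13 alternative fits that tested them, and *Flrt1* in 6 of 13. Its adjusted p was 0.0533 to 0.112 when any 1 library was left out and 0.0871 with the replicate block. The 3 genes showed no overlap between the genotypes, as did 28.2% of all tested genes in either direction. They were named because they had passed the test, so this separation is not independent of their calls.

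**Figure D5:**
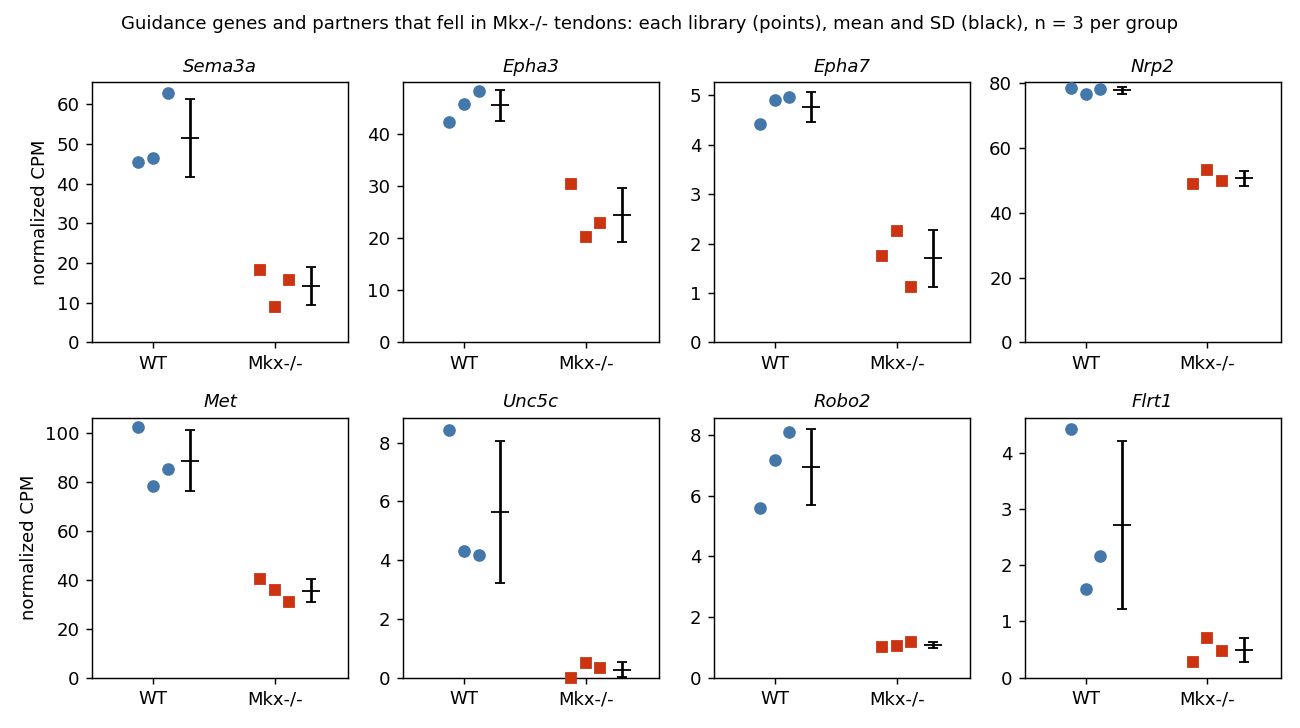
Level in each library, in CPM, of the members and partner genes that fell at an adjusted p under 0.05, with 1 point per library and the mean and SD of each group in black (n = 3), each axis starting at 0. In each panel all *Mkx*-/- points lie below all WT points. The genes were chosen by the test on these same libraries, so the separation adds no support to their calls.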

How the data were processed

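Tail tendon RNA-seq libraries, 3 WT and 3 *Mkx*-/-, were analysed. Per the labels and the study's methods, total RNA was extracted with Trizol, prepared with the Ion Total RNA-Seq Kit v2 and sequenced on the Ion Proton system, and adaptor, ambiguous and low-quality reads were removed before alignment to mm9 with MapSplice. The authors deposited raw counts of reads per gene symbol, without normalization. The counting program, its annotation and its use of strand are not given in the sources used here. Column names matched the labels of all 6 samples, and 0 columns were left unused.

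Fold changes and TMM-scaled CPM came from edgeR 4.0.16 under R 4.3.3 (filterByExpr, quasi-likelihood test on genotype, robust = FALSE, prior count 0.125). SE is the absolute log2 fold change divided by the square root of F. P-values came from this fit, since an exact permutation test of 3 against 3 libraries cannot go below 0.1, and were adjusted over all 14550 genes. Levels per kb were divided by the union of exons of each gene in GENCODE on mm9, with its longest transcript as the alternative. Tested on simulated counts for these 14550 genes and this comparison, edgeR recovered 181 of 200 changed genes with 3 false calls, and DESeq2 1.42.0 recovered 181 with 8. Recovery at the fold changes found for the members was not tested. Replicate libraries differed by more than sampling noise, with chi-square per degree of freedom of 7.59 to 36.4. Counts of about 10, as in *Rnd1* and *Grip2*, carry a large counting error.

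Alternatives were DESeq2, RLE, upper-quartile and total-count scaling, a filter keeping genes with 1 count in at least 1 library, another keeping those with 10 in each, a robust fit, the replicate number as a block, and leaving out each library, which made 14 fits. The members and the lists of partner and marker genes were chosen with earlier results of these data known. Named were all members past the adjusted threshold, those with an unadjusted p under 0.05, the 3 highest of each class per length, *Nrp1*, *Nrp2*, partners past the threshold and abundant markers, of which 1 is not reported here. *Epha2*, *Epha4*, *Epha6*, *Sema3d*, *Sema4b*, *Sema4d*, *Sema6d*, *Plxna3*, *Plxnd1*, *Efnb2* and *Efnb3* were named in addition, after their values were seen. So were the partner *Dpysl5* and the markers *Erg*, *Ecscr*, *Tek*, *Emcn*, *Esam*, *Mcpt4*, *Tpsb2*, *Cpa3* and *Cma1*. Coordinates of 1 member on chromosome 18 are not reported here.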

Additional observations from a re-analysis of the deposited data

How the results depend on the processing

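Of the member results, *Sema3a* kept its direction and its adjusted p under 0.05 in all 14 alternatives, and *Epha3* and *Epha7* kept their direction in all 14 and their calls in 9. RLE and upper-quartile scaling, the robust fit and the filter of 10 counts left the members at 0 upregulated, 2 downregulated, 0 risen and 3 fallen. DESeq2 and the filter of 1 count in any library each gave 5 risen and 5 fallen. Total-count scaling gave 5 upregulated and 5 risen, with the median log2 fold change of all genes at 0.25. With the replicate block 1 member was downregulated, 2 rose (*Sema3g* and *Sema4g*) and 1 fell (*Sema3a*). Without single libraries, 0 to 4 members were upregulated, 1 to 3 downregulated, 0 to 4 rose and 1 to 4 fell. The 4 that rose did so without *Mkx*-/- replicate 1 (*Sema3g*, *Sema4g*, *Plxnb1* and *Plxnb3*), 1 member alone fell without WT replicate 2, without WT replicate 3 or without *Mkx*-/- replicate 3, and *Sema3e* rose and *Sema3f* fell without WT replicate 1. Of the tested members and the named partners, signs turned only in those with an unadjusted p over 0.05. With total-count scaling the log2 fold changes were 0.010 for *Efna5*, 0.15 for *Efnb2*, 0.23 for *Sema4d*, 0.25 for *Plxna1*, 0.24 for *Plxnd1* and 0.16 for *Nrp1*, and with the filter of 1 count *Plxna1* was at 0.0068. Without single libraries they ran from -0.21 to 0.41 for *Epha4*, -0.014 to 0.44 for *Efnb1*, -0.44 to 0.12 for *Efnb2*, -0.015 to 0.41 for *Sema4b*, -0.16 to 0.098 for *Sema4d*, -0.058 to 0.013 for *Plxna1*, -0.036 to 0.45 for *Plxna3* and -0.20 to 0.072 for *Plxnd1*. The replicate block ended the calls of *Epha3*, *Epha7*, *Nrp2*, *Rnd1*, *Dpysl3*, *Grip2* and *Flrt1*. The cause of these changes was not tested, beyond the fewer samples of the fits that leave out a library. Over all genes, total-count scaling gave 711 upregulated genes against 275, the filter of 1 count 541 upregulated and 322 downregulated, and leaving out libraries 103 to 321 and 112 to 248. Same-numbered libraries did not all deviate together (correlations of 0.026, -0.21 and 0.297 for numbers 1, 2 and 3), so they were taken to share only a number. At these depths 10 tested members were under 5 CPM in WT, where only large differences can be seen.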
